A study of Danio rerio with 8 samples.

Results

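The genes of the DNA methylation cycle were followed in sorted primordial germ cells (PGCs), from which the gametes descend, and in somatic cells of the zebrafish embryo. They comprised 2 DNA methyltransferases, dnmt1 (ENSDARG00000030756) and dnmt3bb.1 (ENSDARG00000036791), and 3 Tet enzymes, tet1 (ENSDARG00000075230), tet2 (ENSDARG00000076928) and tet3 (ENSDARG00000062646). The 5 genes were taken by their Ensembl IDs, with no threshold on their values, from 34381 genes in the deposited tables. The name table used here calls ENSDARG00000036791 DNMT3B, and the zebrafish name dnmt3bb.1 is kept below. All 5 genes passed the count filter and were among the 19885 genes tested.

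The 8 low-input total RNA libraries fell into 4 groups of 2, which were PGCs at 7 hours post fertilisation (hpf), PGCs at 24 hpf, soma at 7 hpf and soma at 24 hpf. Both PGCs and somatic cells were isolated by fluorescence-activated cell sorting from embryos of the kop-EGFP-F-nos3′UTR transgenic line, which all 4 groups share. In this line the kop promoter and the nos3 3′UTR direct the EGFP marker to germ cells. Per the study's methods it also carries a cry:DsRed reporter. No group was treated or mutant. The study describes its replicates as biologically independent, while the sample labels give a replicate number and nothing on the embryos behind it.

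The methyl group of 5-methylcytosine (5mC) is placed and removed by separate enzymes. Dnmt1 is the maintenance methyltransferase, which copies 5mC onto the new DNA strand after replication, and the Dnmt3 enzymes, dnmt3bb.1 among them, methylate unmodified CpG sites de novo. Tet enzymes oxidise 5mC to 5-hydroxymethylcytosine and further products, which are then diluted by replication or excised by DNA repair. In mouse, PGCs lose most of their 5mC as they migrate to the gonad, and in zebrafish tet2 and tet3 act redundantly in the formation of blood stem cells.

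Library totals ranged from 6997561 to 21073240 expected counts, the gene counts estimated by RSEM. The 20 genes with the most counts summed over all 8 libraries took 5.28% to 8.17% of the counts at 7 hpf and 35.1% to 43.5% at 24 hpf. This fixed set was weighted to the libraries at 24 hpf, which were the deeper ones, and is not each library's own top 20. Levels between libraries are given as CPM (counts scaled to library size) with TMM, a method that sets the scale from the bulk of genes (scaled CPM below). Levels between genes are given as TPM, which accounts for transcript length. A limit of 3 counts in a library corresponded to 0.142 to 0.429 CPM before scaling, and this limit, like the counting intervals below, covers counting error only. Replicate libraries correlated at a Spearman rho of 0.924 to 0.952 across genes, which are not independent replicates. PGC and soma libraries correlated with each other at 0.877 to 0.899 at 7 hpf and at 0.909 to 0.948 at 24 hpf. The soma replicates at 24 hpf gave 0.929, so by this measure the cell types did not separate at that stage.

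Both labelled cell types were checked against their markers before the results. The IDs of the 11 germline markers came from the study's supplementary gene lists, among them lists of genes higher in its own PGCs. Their direction is therefore not an independent check of the labels. All 11 had positive PGC to soma log2 differences at both stages. At 7 hpf 7 of them passed the test as higher in PGCs, as did 3.61% of all tested genes. At 24 hpf 5 did, NANOS3, DND1, TDRD7A, DDX4 and CA15B, where 0.0302% of all tested genes passed in either direction. The summed level of the 11 was 4895 and 6549 scaled CPM in the PGC libraries at 7 hpf, 692 and 533 in PGCs at 24 hpf, 176.7 and 78.46 in soma at 7 hpf, and 7.746 and 14.89 in soma at 24 hpf. In PGCs all 11 had negative log2 changes from 7 to 24 hpf, and 8 passed the test as lower, as did 6.94% of all tested genes. For each of the 11, both PGC libraries at 24 hpf lay below both at 7 hpf. The stages did not overlap in PGCs, in either direction, for 73.8% of all tested genes.

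RNA of somatic markers was present in the PGC libraries at 24 hpf. Of 26 somatic marker IDs (skin, nerve, muscle, blood, connective tissue and others), 0 were called between PGCs and soma at 24 hpf by edgeR, DESeq2 or limma, where 0.0302% of all tested genes were called by edgeR. At an unadjusted p under 0.05, 2 of the 26 were lower in PGCs and 0 higher, against 3.02% of tested genes in either direction. By sign, 6 of the 26 had positive PGC to soma differences, and the median log2 difference was -0.28 against 0.02 over all tested genes. In the PGC libraries 0 and 2 of the 26 were at 0 counts, and in each soma library 1. Their summed level was 45170 and 77820 scaled CPM in PGCs against 24230 and 64660 in soma, a sum to which titin contributed most. Without the 2 titin IDs, left out after their values were seen, it was 9717 and 15809 in PGCs against 13173 and 16918 in soma. ELAVL3, a neuronal RNA-binding protein, measured 207.7 and 192.3 scaled CPM in PGCs and 179.4 and 237.6 in soma. MYOD1, a muscle determination factor, measured 51.0 and 91.7 in PGCs and 42.5 and 47.8 in soma. Lower values in PGCs were seen for NEUROD1, a neuronal transcription factor, with 9.8 and 7.2 against 21.8 and 29.1 in soma, and for gata1a, an erythroid factor, with 1.9 and 1.6 against 13.0 and 9.2. These 4 markers were picked after their values were seen. At 24 hpf the level of a gene in the PGC libraries therefore cannot be assigned to germ cells alone, and in bulk samples fewer cells of a type and less RNA per cell cannot be told apart. The study assessed the purity of its sorted cells separately, which is not analysed here. At 7 hpf the sum over the 26 IDs was 7487 and 4334 in PGCs and 2412 and 2911 in soma. Most of the PGC sums came from krt4, krt5, cyt1 and krt18a.1. Of the 26, 11 had positive PGC to soma differences at 7 hpf. The median log2 difference was -0.58 against 0.00 over all tested genes. At that stage 6 of the 26 were called lower in PGCs, where 1.83% of all tested genes were. Among them were SOX2, SOX3 and sox19a, transcription factors of the early ectoderm and neural plate. Another was COL2A1 ENSDARG00000069093, with a log2 difference of -4.63 (edgeR adjusted p = 0.0238). The size of that difference rests on values near the floor, 0 to 0.145 scaled CPM in PGCs and 1.12 to 3.54 in soma at 7 hpf. Called higher were 2, krt18a.1 and COL2A1 ENSDARG00000011407 (2.47), where 3.61% of all tested genes were. The COL2A1 IDs thus went in opposite directions. The epidermal keratin genes krt4, krt5, cyt1 and krt18a.1 had PGC to soma log2 differences of 2.20 to 2.29, of which krt18a.1 was called (edgeR adjusted p = 0.0315). TP63, also an epidermal marker, went the other way and was called lower, with a log2 difference of -2.33 (edgeR adjusted p = 0.0255). DESeq2 called 6 somatic IDs higher and 8 lower. The part of these markers in the differences at 7 hpf described below was not tested.

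**Figure D1:**
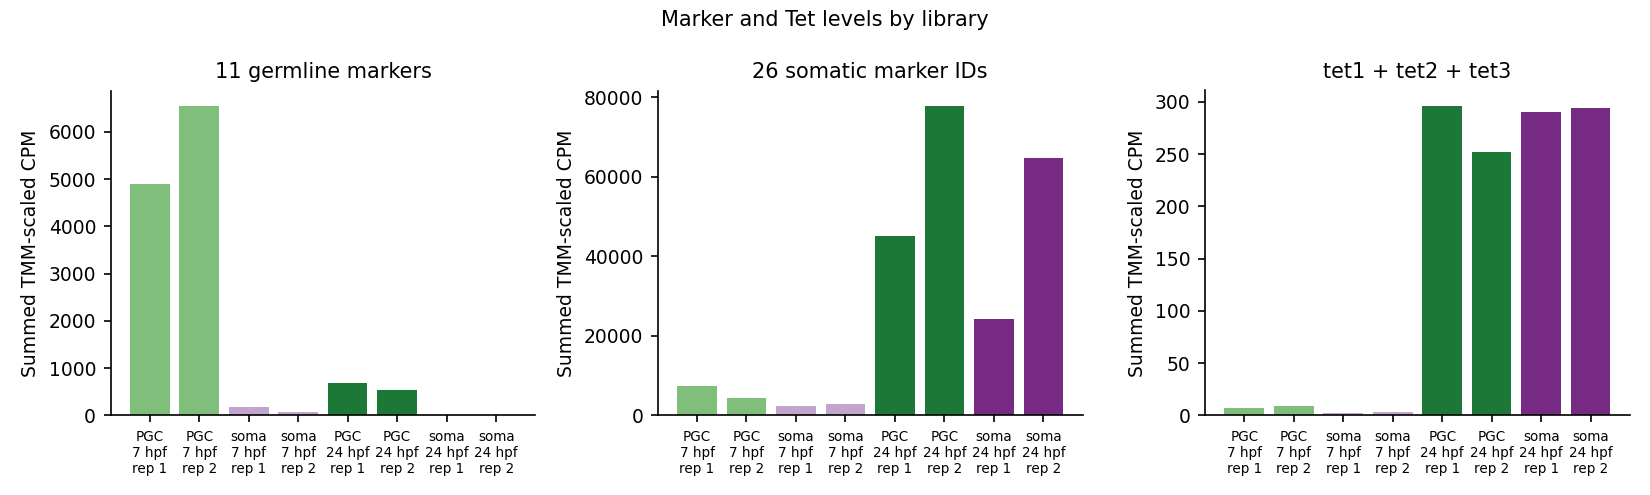
Summed TMM-scaled CPM (vertical axes) of the 11 germline markers, the 26 somatic marker IDs and the 3 Tet genes in each of the 8 libraries (bars). The somatic sums of the 24 hpf PGC libraries, 45170 and 77820, overlap those of the 24 hpf soma libraries, 24230 and 64660, and the Tet sums run from 252.2 to 296.1 in all libraries at 24 hpf.

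The 5 genes differed in how their levels ran between the stages. At 7 hpf, transcripts of the methyltransferases were present in every library, while tet2 and tet3 were at 0 to 13 counts and tet1 at 23 to 89. At 24 hpf, each Tet gene had 548 to 2390 counts in every library of both cell types. The levels of dnmt1 overlapped between the stages in each cell type, and dnmt3bb.1 was high in soma at 7 hpf. The plot of levels by library shows the Tet genes rising in both cell types and dnmt1 nearly flat.

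**Figure D2:**
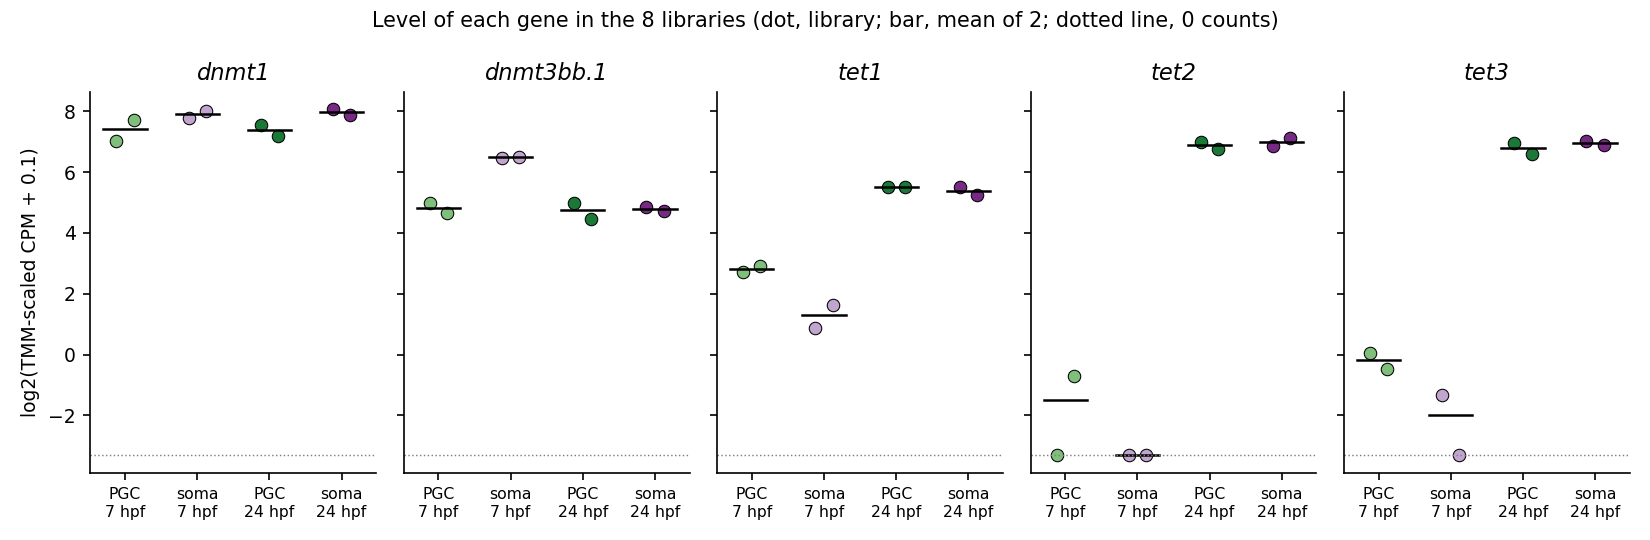
Level of dnmt1, dnmt3bb.1, tet1, tet2 and tet3 as log2(TMM-scaled CPM + 0.1) on the vertical axis, for the 4 groups on the horizontal axis, with a dot for each library, a bar for the mean of 2 libraries and a dotted line at 0 counts. The dots of tet2 and tet3 sit at or near the dotted line at 7 hpf and at 97.01 to 138.5 scaled CPM at 24 hpf, and the soma dots of dnmt3bb.1 at 7 hpf, 88.6 and 91.04, lie above its other 6.

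The maintenance enzyme dnmt1 measured 130.9 and 211.6 scaled CPM in PGCs at 7 hpf, 187.3 and 146.0 in PGCs at 24 hpf, 220.7 and 258.0 in soma at 7 hpf, and 268.8 and 235.0 in soma at 24 hpf. On this scale the PGC libraries lay below the soma libraries at each stage. The groups did not overlap, in either direction, for 48.7% of all tested genes at 7 hpf and 37.1% at 24 hpf. Within each cell type the stages of dnmt1 overlapped. In TPM the cell types overlapped at 7 hpf, with 29.26 in PGC replicate 2 above 23.45 in soma replicate 2. At 24 hpf they did not overlap in TPM, with 17.74 and 10.8 in PGCs against 32.94 and 20.91 in soma. The group means were 171 ± 57.0 and 167 ± 29.2 in PGCs and 239 ± 26.4 and 252 ± 23.9 in soma (SD, n = 2 each, 7 then 24 hpf). The PGC to soma log2 difference was -0.48 ± 0.29 at 7 hpf (SE, edgeR adjusted p = 0.316) and -0.60 ± 0.29 at 24 hpf (SE, edgeR adjusted p = 1), so neither passed. Between stages dnmt1 changed by a log2 value of -0.04 ± 0.28 in PGCs and by 0.07 ± 0.28 in soma (SE, edgeR adjusted p = 0.929 and 0.853). The sign of both stage changes depended on the scaling. In PGCs the value was 0.022 with RLE factors and -0.65 with log2(TPM + 0.1), and in soma it was -0.053 with log2(TPM + 0.1).

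The de novo enzyme dnmt3bb.1 measured 31.85 and 24.93 scaled CPM in PGCs at 7 hpf, 31.57 and 21.87 in PGCs at 24 hpf, 88.6 and 91.04 in soma at 7 hpf, and 29.0 and 26.28 in soma at 24 hpf. Both soma libraries at 7 hpf were high, and the other 6 libraries covered a common range from 21.87 to 31.85. The gene was 3.16-fold lower in PGCs than in soma at 7 hpf, a log2 difference of -1.66 ± 0.30 (SE, edgeR adjusted p = 0.0199). It was 3.25-fold lower at 24 than at 7 hpf in soma, a log2 change of -1.70 ± 0.30 (SE, edgeR adjusted p = 0.00263). These differences share the same pair of soma libraries at 7 hpf and are not independent of each other. In PGCs the stage change was -0.09 ± 0.29, and at 24 hpf PGCs and soma differed by -0.05 ± 0.29 (SE, edgeR adjusted p = 0.842 and 1). Without PGC replicate 2 at 7 hpf the PGC to soma difference was -1.52 with an edgeR adjusted p of 0.0892, and it also missed the threshold in the 4 limma settings on TPM.

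tet1 was the only Tet gene with more than 13 counts in any library at 7 hpf. Its counts there were 89 and 73 in PGCs and 23 and 32 in soma, which is 6.456 and 7.52 scaled CPM in PGCs and 1.721 and 2.982 in soma. The groups did not overlap, and the PGC level was 2.98-fold higher, a log2 difference of 1.58 ± 0.38 (SE, edgeR adjusted p = 0.0392). From the pooled counts the ratio was 3.02, with a 95% counting interval of 2.21 to 4.18. This call was lost in 12 of 21 alternative settings, including a fit on the 4 libraries of the contrast (edgeR adjusted p = 0.199) and the omission of any library but soma replicate 2 at 7 hpf (log2 differences of 1.22 to 2.01 over all 8 omissions).

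At 24 hpf tet1 measured 45.99 and 45.5 scaled CPM in PGCs and 45.15 and 37.61 in soma. It rose 6.55-fold in PGCs, by a log2 change of 2.71 ± 0.37 (SE, edgeR adjusted p = 0.00103). In soma it rose 17.6-fold, by 4.14 ± 0.40 (SE, edgeR adjusted p = 0.00024). At 24 hpf the PGC to soma difference was 0.14 ± 0.34 (SE, edgeR adjusted p = 1). Every library at 24 hpf lay above every library at 7 hpf.

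tet2 had 0 and 5 counts in PGCs at 7 hpf and 0 counts in both soma libraries, so no fold is given between the cell types at that stage. At 24 hpf it measured 126.2 and 109.7 scaled CPM in PGCs and 115.5 and 138.5 in soma, groups that overlapped. The rise in PGCs was 557-fold from the pooled counts, with a 95% counting interval of 238 to 1716 that rests on those 5 counts (edgeR adjusted p = 0.000267). The fitted log2 change ran from 7.83 without PGC replicate 1 at 7 hpf to 13.75 without replicate 2, where 0 counts remained at 7 hpf. In soma tet2 was at least 509-fold higher at 24 hpf, against a floor of 3 counts per library (edgeR adjusted p = 0.000172). The PGC to soma log2 difference at 24 hpf was -0.11 ± 0.49 (SE, edgeR adjusted p = 1).

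tet3 had 13 and 6 counts in PGCs at 7 hpf and 4 and 0 counts in soma. The pooled counts gave a PGC to soma ratio of 4.87 with a 95% counting interval of 1.62 to 19.7, and the difference did not pass the test (edgeR adjusted p = 0.0987). It passed under DESeq2 (adjusted p = 0.0499), without a count filter (edgeR adjusted p = 0.0184) and without soma replicate 1 at 7 hpf (edgeR adjusted p = 0.0305), where the remaining soma library held 0 counts. At 24 hpf tet3 measured 123.9 and 97.01 scaled CPM in PGCs and 129.3 and 118.4 in soma. The pooled counts rose 138-fold in PGCs (95% counting interval 88.0 to 229, edgeR adjusted p = 0.000127) and 747-fold in soma (291 to 2742, edgeR adjusted p = 6.97e-05). The value in soma rests on 4 counts in 1 library and would be 498-fold at a floor of 3 counts per library. Its fitted log2 change ran from 8.65 without soma replicate 2 at 7 hpf to 13.78 without replicate 1, where 0 counts remained. The PGC to soma log2 difference at 24 hpf was -0.17 ± 0.40 (SE, edgeR adjusted p = 1).

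A gene was called when its adjusted p was under 0.05 and its log2 fold change at least 1.5 in size. Between PGCs and soma at 7 hpf 2 of the 5 genes were called, where 5.44% of all tested genes were. The called genes were tet1, higher in PGCs as were 3.61% of tested genes, and dnmt3bb.1, lower as were 1.83%. In 4 of the 5 the groups did not overlap, which held for 48.7% of tested genes. At 24 hpf 0 of the 5 were called by edgeR, by DESeq2 or by limma on TPM, and 0 had an unadjusted p under 0.05 in edgeR. Of all tested genes 0.0302% were called there and 3.02% had an unadjusted p under 0.05. The groups of 2 genes, dnmt1 and tet1, did not overlap at 24 hpf, as for 37.1% of tested genes.

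Between the stages 3 of the 5 were called in PGCs, the Tet genes, each of them higher at 24 hpf. Of all tested genes 26.5% were called in that comparison and 19.5% were called higher. In soma 4 of the 5 were called, where 33.1% of tested genes were, with the 3 Tet genes higher (23.2% of tested genes) and dnmt3bb.1 lower (9.89%). Stages did not overlap for 3 of the 5 in PGCs and 4 of the 5 in soma, against 73.8% and 73.6% of tested genes. Over all tested genes the log2 change had a median of 0.36 for PGCs and 0.46 for soma. Among the changes of all tested genes, those of tet1, tet2 and tet3 stood at the 77.3, 96.5 and 91.8 percentile in PGCs, and those of tet1 and tet3 at the 82.1 and 97.3 percentile in soma. The summed Tet level was 7.40 and 8.65 scaled CPM in PGCs and 2.02 and 2.98 in soma at 7 hpf, and 296 and 252 in PGCs and 290 and 295 in soma at 24 hpf. Both the Tet sum and the somatic marker sum were higher at 24 than at 7 hpf in each cell type. Among the libraries at 24 hpf the somatic sum ran from 24230 to 77820 scaled CPM and the Tet sum from 252 to 296. PGC replicate 2 had the higher somatic sum and the lower Tet sum of the PGC pair. The part of somatic RNA in the Tet level of the PGC libraries was not tested.

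**Figure D3:**
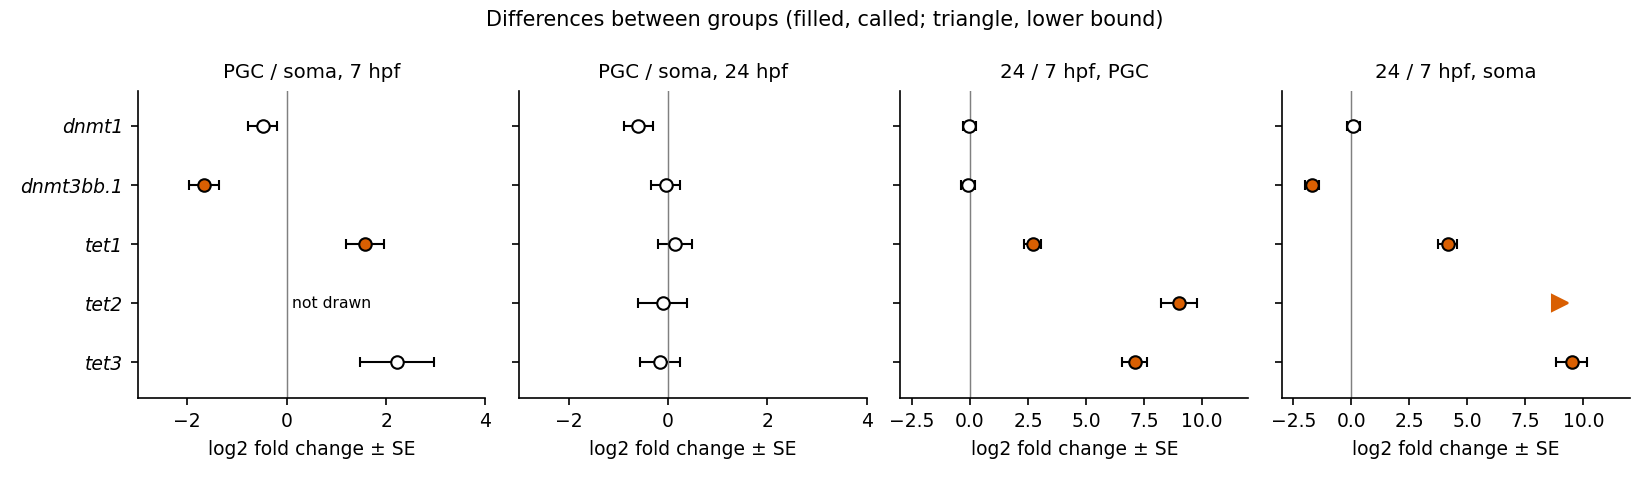
Log2 fold changes with standard errors (horizontal axes) of the 5 genes (rows) in 4 comparisons, with filled points for called genes. The triangle marks the lower bound of 509-fold for tet2 in soma, tet2 is not drawn for PGC against soma at 7 hpf, and the points of the comparison at 24 hpf run from -0.60 to 0.14.

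The interaction term asked whether a gene changed differently with stage in PGCs than in soma. None of the 5 passed in edgeR, and 1 of all 19885 genes did (0.00503%). At an unadjusted p under 0.05 there were 3 of the 5, dnmt3bb.1, tet1 and tet3, against 15.1% of tested genes. The dnmt3bb.1 interaction was 1.61 ± 0.42 on the log2 scale (SE, edgeR adjusted p = 0.166), and this gene passed with DESeq2 (adjusted p = 0.0447). The tet1 and tet3 interactions were -1.43 ± 0.51 and -2.39 ± 0.85 (SE, edgeR adjusted p = 0.251 and 0.252), which is a smaller rise in PGCs. The tet3 value was -6.68 without soma replicate 1 at 7 hpf and -1.55 without soma replicate 2. The stage changes of dnmt3bb.1 and the Tet genes were therefore not shown to differ between the cell types.

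Per length, the make-up of the Tet transcripts turned over between the stages. tet1 held 83.6% and 82.9% of the summed Tet TPM in PGCs at 7 hpf and 75.9% and 100% in soma, shares that rest on 27 to 102 Tet counts per library. At 24 hpf tet1 held 9.74% to 14.3%, tet2 27.3% to 33.5% and tet3 54.83% to 61.03% in all libraries. The order at 24 hpf by TPM was thus tet3, tet2, tet1 in both cell types. That of tet3 over tet2 depended on the division by length. In scaled CPM the means at 24 hpf were 117.9 for tet2 and 110.4 for tet3 in PGCs, and 127 and 123.9 in soma. The shares are descriptions without a test, since they are ratios within libraries of 2 per group.

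**Figure D4:**
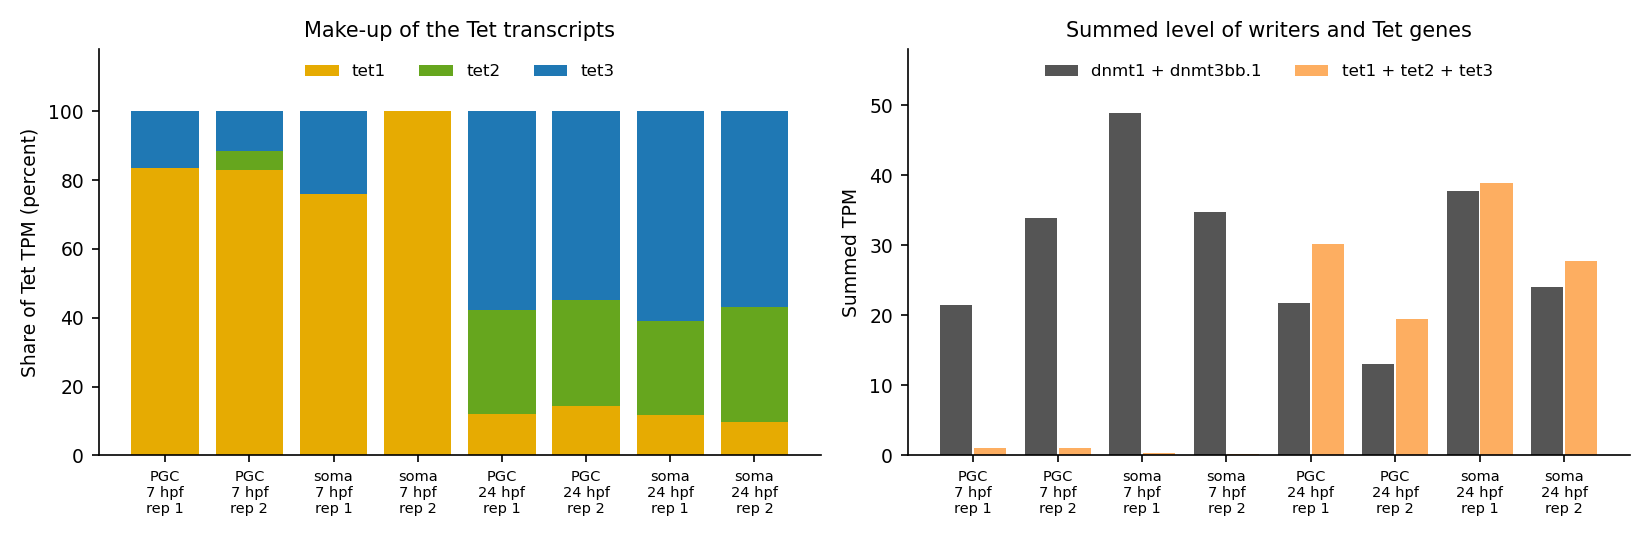
Share of the summed Tet TPM held by tet1, tet2 and tet3 in percent (left, stacked bars) and summed TPM of both methyltransferases and of the 3 Tet genes (right, paired bars) in each library. tet1 takes 75.9% to 100% of the Tet signal at 7 hpf and tet3 54.83% to 61.03% at 24 hpf, where the Tet bar exceeds the methyltransferase bar in every library.

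The balance of the Tet genes to both methyltransferases shifted in the same libraries. Summed TPM of tet1, tet2 and tet3 over that of dnmt1 and dnmt3bb.1 was 0.0513 and 0.0309 in PGCs and 0.0059 and 0.0069 in soma at 7 hpf. At 24 hpf it was 1.386 and 1.497 in PGCs and 1.03 and 1.15 in soma. The PGC ratios were above the soma ratios at each stage, without a test. At 24 hpf the Tet sum itself was 30.19 and 19.46 TPM in PGCs and 38.9 and 27.73 in soma. The methyltransferase sum was 21.79 and 13.0 against 37.76 and 24.08. Other Dnmt3 genes are not in this sum. Of these, dnmt3ba measured 122.6 to 174 scaled CPM at 24 hpf, against 21.87 to 31.57 for dnmt3bb.1. The ratio therefore describes dnmt1 and dnmt3bb.1 only. In soma replicate 1 at 24 hpf the higher Tet sum depended on the division by length. That library measured 290 scaled CPM for the Tet sum, 268.8 for dnmt1 and 29.0 for dnmt3bb.1. In the other libraries at 24 hpf the Tet sum was the higher in scaled CPM too.

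In order of TPM, the levels at 7 hpf ran dnmt1, dnmt3bb.1, tet1 and then tet3 and tet2 at or near 0. In PGCs the means were 22.7 ± 9.28 for dnmt1, 4.995 ± 0.46 for dnmt3bb.1 and 0.895 ± 0.035 for tet1 TPM (SD, n = 2). In soma they were 27.5 ± 5.78, 14.3 ± 4.30 and 0.23 ± 0.014 TPM (SD, n = 2). In soma tet2 was at 0 in both libraries and tet3 at 0.07 and 0 TPM, so tet3 and tet2 did not separate from each other there.

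In TPM tet3 stood beside dnmt1 at 24 hpf. In the PGC libraries dnmt1 was 17.74 and 10.8 TPM and tet3 17.45 and 10.67, and in soma dnmt1 was 32.94 and 20.91 and tet3 23.74 and 15.74. The ranges of these neighbours overlapped across the libraries of each cell type, and within each of the 4 libraries dnmt1 was the higher. This nearness depended on the division by length. In scaled CPM dnmt1 was 187.3 and 146.0 in PGCs against 123.9 and 97.01 for tet3, and 268.8 and 235.0 in soma against 129.3 and 118.4. tet2 followed at 9.09 and 6.01 TPM in PGCs and 10.62 and 9.29 in soma, above dnmt3bb.1 and tet1 in every library. dnmt3bb.1 (4.05 and 2.2 TPM in PGCs, 4.82 and 3.17 in soma) and tet1 (3.65 and 2.78, 4.54 and 2.7) overlapped, and tet1 was the higher of the pair in PGC replicate 2.

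Within the ranks of all genes above 0 TPM, dnmt1 stayed between the 89.3 and 93.8 percentile in the 4 groups. dnmt3bb.1 stood at the 83.3 percentile in soma at 7 hpf and between 66.9 and 69.3 elsewhere. tet3 moved from 16.2 to 91.7 in PGCs and from 5.4 to 91.8 in soma, and tet1 from 39.0 to 70.0 and from 24.8 to 66. tet2 stood at 84.7 in PGCs and 83.9 in soma at 24 hpf. The ratio of dnmt1 to dnmt3bb.1 TPM was 1.82 and 2.08 in soma at 7 hpf and 3.03 to 6.83 in the other 6 libraries.

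The deposited effective length is an abundance-weighted transcript length in bases, 1 value per gene and library, which does not tell which isoforms carried the counts. After removal of each library's common shift, dnmt3bb.1 stood at 3440 bases in all 8 libraries and dnmt1 between 4662 and 4690. tet1 was at 4052 bases in PGC replicate 1 at 7 hpf, on 89 counts, and at 5268 to 5785 in the other 7 libraries. Its TPM in that library (0.92) exceeded that of PGC replicate 2 (0.87) although its scaled CPM was lower, since TPM divides by this length. tet3 was at 3117 to 3141 bases at 24 hpf and tet2 at 6139 to 6317. No test was run on these lengths.

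Read sharing between close relatives bears on the Dnmt3 genes. dnmt3bb.1, dnmt3bb.2 and dnmt3bb.3 lie beside each other in the RefSeq annotation of GRCz12tu. The expected counts of all 5 selected genes were whole numbers in 8 of 8 libraries, within 0.005, so no fractional assignment was visible. The counts of dnmt3bb.2 and dnmt3bb.3 were fractional in every library, and their values below are uncertain.

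Among the other genes of the pathway, the remaining writers and maintenance factors were read alongside. The list held 36 IDs (writers, base removal, readers and cofactor supply), of which 34 were tested. Between PGCs and soma at 7 hpf, 0 were higher and 2 lower, and the median log2 difference was -0.31 against 0.00 over all tested genes. At an unadjusted p under 0.05, 5 were higher and 9 lower in edgeR, and DESeq2 called 4 higher and 2 lower. The share called by edgeR is near the 5.44% of all tested genes. UHRF1, which recruits Dnmt1 to replicated DNA, measured 374.5 and 221.7 scaled CPM in PGCs and 1009 and 831.8 in soma, a log2 difference of -1.63 ± 0.31 (SE, edgeR adjusted p = 0.0214). MAT2A (ENSDARG00000037121), which makes the methyl donor S-adenosylmethionine, differed by -3.25 ± 0.60 (SE, edgeR adjusted p = 0.0208). This ID had 29 and 8 counts in PGCs, and the more abundant MAT2A ID was not called. That ID, ENSDARG00000040334, measured 397.8 and 419 scaled CPM in PGCs and 549.3 and 450.4 in soma. Its log2 difference was -0.29 (edgeR adjusted p = 0.49).

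By the adjusted p from edgeR, with no minimum fold, 6 of the 34 were lower in PGCs at 7 hpf and 0 higher, where 8.28% of all tested genes passed, 4.26% lower and 4.02% higher. Beside UHRF1 and MAT2A ENSDARG00000037121 these were dnmt3ba (-1.18), dnmt3bb.2 (-1.13), the glycosylase gene TDG ENSDARG00000013004 (-1.02) and the reader gene MBD3 (-1.49). The edgeR adjusted p of dnmt3ba, dnmt3bb.2, TDG and MBD3 was 0.0223, 0.025, 0.0383 and 0.0267. dnmt3ba, a de novo methyltransferase like dnmt3bb.1, measured 133.6 and 155.4 scaled CPM in PGCs and 334.8 and 319.4 in soma at 7 hpf, and dnmt3bb.2 393.8 and 371.3 against 772.8 and 899.1. At 24 hpf 0 of the 34 were called in either direction by edgeR, DESeq2 or limma, 0 had an unadjusted p under 0.05 in edgeR, and the median difference was -0.11.

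Between the stages, 7 of the 34 were called higher and 3 lower in PGCs, and 6 higher and 3 lower in soma, with medians of -0.19 and -0.26 against 0.36 and 0.46 over all tested genes. Of all tested genes 19.5% were called higher and 6.94% lower in PGCs, and 23.2% and 9.89% in soma, so the list's share of calls was near that of all genes. Both IDs named DNMT3A, further de novo methyltransferases, rose in both cell types. ENSDARG00000005394 rose from 5.9 and 4.4 to 81.6 and 86.5 scaled CPM in PGCs and from 4.1 and 3.6 to 52.04 and 78.02 in soma, log2 changes of 4.01 and 4.06 (edgeR adjusted p = 0.00018 and 0.000147). ENSDARG00000015566 rose by 3.81 and 3.97 (edgeR adjusted p = 0.000347 and 0.000299). dnmt3bb.2 fell to 95.4 and 81.2 scaled CPM in PGCs and 106.3 and 88.2 in soma, log2 changes of -2.12 and -3.10 (edgeR adjusted p = 0.000431 and 0.000117).

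The other called pathway genes supply cofactors, remove bases or read 5mC. IDH2, a mitochondrial enzyme that makes the Tet cofactor 2-oxoglutarate, rose by 2.34 in PGCs and 1.90 in soma, and GADD45G (ENSDARG00000016725) by 2.93 and 5.38. The counts of that GADD45G ID were fractional in 4 of 8 libraries, and its values are uncertain. APOBEC2, a deaminase relative known from muscle, rose by 5.91 in PGCs and from 0 counts in both soma libraries. zbtb4, a methyl-CpG binding zinc finger gene, rose by 5.23 in soma and from 0 counts in both PGC libraries. MAT2A ENSDARG00000037121 rose in PGCs (2.68), and its second ID, ENSDARG00000040334, fell in both cell types (-1.52 and -1.58). GADD45B (ENSDARG00000027744) fell in PGCs (-2.35) and MBD3 (ENSDARG00000061774) in soma (-1.89). The edgeR adjusted p of these calls ran from 0.000558 to 0.0117.

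The genes whose level over the 8 libraries was most like each of the 5 were taken by Pearson's r of log2 CPM, among 12311 named genes. For tet2 they were cmn and GRB14 (both r = 0.999), for tet3 hcn2b (0.998) and col7a1l (0.997), and for tet1 DDR1 (0.998) and sgms1b (0.997). For dnmt3bb.1 they were CPSF1 (0.991) and TTC21B (0.990), and for dnmt1 IFT52 (0.954) and BMP1 (0.933). The Tet genes correlated with each other at 0.963 to 0.980. These are descriptions over 8 points that share 4 groups and their depth, stage being the main contrast among them for the Tet genes.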

How the data were processed

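RNA from 8 sorted cell samples was sequenced on a NovaSeq instrument, in a run added for splicing work, where the study used it together with an earlier run. Whether the deposited counts include the earlier run is not given in the sources used here. Per the submitters' processing notes, reads were trimmed with Trim Galore, aligned to danRer10 with STAR and quantified with RSEM. The authors' expected counts are RSEM estimates per gene, which were rounded here. The TPM values deposited by the authors divide counts by effective length and are scaled to a common total per library. The other deposited table holds effective length in bases per gene. Use of strand in counting is not given in the sources used here, so overlapping genes are uncertain.

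Counts were filtered with filterByExpr, scaled by TMM and tested in R 4.3.3 by the quasi-likelihood method of edgeR 4.0.16, where all 8 libraries entered a model of 4 group means (4 residual degrees of freedom), with Benjamini-Hochberg adjustment over 19885 genes. The threshold of 0.05 and a log2 fold of 1.5 follows the study. The standard error is the log2 change over the root of F. Log2 CPM used a prior count of 2. Alternatives were DESeq2 1.42.0, limma 3.58.1 on log2 TPM with a pseudocount of 1 or 0.1, other scalings and filters, a replicate block, length offsets and each library left out.

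Library totals were 6997561 to 21073240 counts. Counting intervals are exact at 95%. Of 34381 IDs, 26790 were named by the reference name table. The named genes were the 5 genes in every comparison, pathway genes that passed, and the 2 most alike genes for each among named genes averaging 50 counts or more. From the planned pathway list, UHRF2, mbd4 and mbd1a had no match. The genes and lists were chosen with earlier results of these data known.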

Additional observations from a re-analysis of the deposited data

How the results depend on the processing

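The cause of each change was not tested unless the setting itself gives it. Of 517 log2 changes of the 5 genes under alternative settings, 470 kept their direction and side of the threshold, 20 lost the call, 5 gained it and 22 turned direction, none of the 22 with a call. The calls of tet2 and tet3 between the stages held in all 21 settings in each cell type. Depth limits tet2 and tet3 at 7 hpf, where 0 to 13 counts set the size of the rise.

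PGC against soma at 7 hpf (1081 genes, 2 of the 5) gave 2264 genes with DESeq2, 2244 without a filter, 400 and 1 of the 5 with the fit on 4 libraries, and 1647 without a minimum fold. limma gave 637 genes with log2(TPM + 1), 428 with log2(TPM + 0.1), 63 with log2(TPM + 1) and no filter, and 0 of the 5 in each of these and with TMM-scaled TPM. Leaving out each library gave 152 to 1191 genes and 0 to 2 of the 5, with the lowest of each without PGC replicate 2 at 7 hpf. Higher genes were 66.3% of the calls, 82.4% with log2(TPM + 1), 84.3% with log2(TPM + 0.1), 93.7% without its filter and 48.5% without a minimum fold.

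At 24 hpf (6 genes, 0 of the 5), DESeq2 gave 81, no filter 103, the fit on 4 libraries 1, log2(TPM + 1) 18, log2(TPM + 0.1) 16, TMM-scaled TPM 23 and leaving out each library 3 to 15, with 0 of the 5 throughout. Higher genes were 100% of the calls, 63.0% with DESeq2, 61.2% without a filter, and 61.1%, 87.5% and 52.2% in these TPM settings. The tet1 difference turned to -0.11 with log2(TPM + 1), filtered or not, and -0.13 with log2(TPM + 0.1). Over the libraries left out, dnmt3bb.1 ran from -0.34 to 0.19, tet2 from -0.21 to 0.030 and tet3 from -0.35 to 0.0016.

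Between stages in PGCs (5266 genes), TMM-scaled TPM gave 3384 genes and leaving out each library 3027 to 5765, the lowest without PGC replicate 2 at 24 hpf. The dnmt1 change was 0.022 with RLE factors, 0.022 with DESeq2, 0.055 with TMM-scaled TPM, and -0.33 to 0.33 over the libraries left out, where dnmt3bb.1 ran from -0.37 to 0.16. The tet1 change was 1.15 with log2(TPM + 1), under the minimum fold. In soma (6588 genes), log2(TPM + 1) gave 4044, TMM-scaled TPM 3749 and no TPM filter 3493, and leaving out each library 4662 to 6759. There dnmt1 was -0.051 with log2(TPM + 1), filtered or not, -0.053 with log2(TPM + 0.1), and -0.081 to 0.19 over the libraries left out, and dnmt3bb.1 was -1.38 with TMM-scaled TPM. Without TMM, TPM moved the median change of all genes in PGCs from 0.36 to -0.39 (pseudocount 1) and -0.52 (pseudocount 0.1), and the higher genes from 73.8% of calls to 40.4% and 45.5%. In soma the median moved from 0.46 to 0.02 and 0.04, and the higher genes from 70.2% to 55.2% and 60.5%.

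The interaction (1 gene, 0 of the 5) gave 725 genes and 1 of the 5 with DESeq2, 986 without a filter, 37 with log2(TPM + 1), 19 with log2(TPM + 0.1), 12 with TMM-scaled TPM, 6 with no TPM filter, and 1 to 27 over the libraries left out, where the dnmt1 interaction ran from -0.36 to 0.30.

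Same-numbered libraries were not shown to pair. Their replicate 1 less replicate 2 differences correlated across genes at 0.077 between PGCs and soma at 7 hpf and 0.199 at 24 hpf. Between groups of different stages these correlations were -0.009 to 0.06. The replicate block was a term for replicate number shared by both stages, so it could not model pairing within a stage. With the block, 952 genes passed at 7 hpf, 5 at 24 hpf, 4886 between stages in PGCs, 6102 in soma and 1 in the interaction. It called 2, 0, 3, 4 and 0 of the 5 genes, as without the block.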
